A study of Homo sapiens with 26 samples.

Results

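A set of 2663 genomic sites was recorded with the same coordinates and peak name in the binding lists of 2 variants of the forkhead factor FOXA1, called FOXA1nhaa and FOXA1rraa in the labels, and shared no base with any of the 155652 sites listed for FOXA1 itself. The sites were chosen by comparing the deposited lists. They are 6.46% of the 41253 rows that the variant lists have in common, 2.52% of the 105591 FOXA1nhaa rows and 3.74% of the 71202 FOXA1rraa rows, and all 6 lists together hold 437877 rows. Measured against the down-sampled FOXA1 list, which holds fewer rows, 31544 of the common rows (76.5%) would lie outside FOXA1. Membership therefore rests on presence or absence of a call, and the absence of a FOXA1 row is not a finding about these sites.

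The lists came from chromatin immunoprecipitation and sequencing with an antibody to the HALO protein tag in the established foreskin fibroblast line BJ, which is human. Every group used here was the same line carrying an ectopically expressed, HALO-tagged protein for 48 hours. The proteins were FOXA1, its variants FOXA1dbd, FOXA1nhaa and FOXA1rraa, and the nuclear receptor HNF4A, with 2 immunoprecipitated and 2 input libraries each among 26 samples in the labels. The labels do not spell out the variant names, a single cell line is the only model, and no group without an ectopic protein was analysed. Each construct has 1 list (FOXA1 has a down-sampled list besides), so replicate error could not be measured and differences between constructs are given without a test. Shares carry 95% Wilson intervals and differences of shares, in percentage points, Newcombe intervals. They cover counting error over sites only, and sites are not replicates of a condition. Without read counts in the lists, the depth behind each call is unknown.

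FOXA1 belongs to the forkhead family, whose DNA-binding domain places a helix in the major groove of DNA and makes further contacts through loops called wings. FOXA factors are known as pioneer factors because they can bind their sequence on nucleosomes, and they are best known for opening enhancers in endoderm-derived tissues such as liver. Fibroblasts normally use other factors at their enhancers, among them AP-1, TEAD and RUNX proteins. The forkhead core searched here was TGTTTAC or TATTTAC on either strand.

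The central 200 bp of 9 sites are printed to show what the calls look like at sequence level. They are GRCh37 plus strand, 5′ to 3′, centred on the authors' summit. The first 3 are the highest-ranked sites by the authors' −log10 q-value with a forkhead core in this window, in capitals. The next 3 are the highest-ranked sites with no such core in the window, though the HECW1 row holds 1 outside it. The RGS3 and VPREB1 sites are the highest-ranked with an AP-1 core (TGACTCA or TGAGTCA), in capitals, and the last is the highest-ranked site that an HNF4A row overlaps. Windows in exons were passed over. A site between genes is named by the protein-coding gene with the nearest start, which can be far away.
GLB1 intron, chr3:33060727-33060926: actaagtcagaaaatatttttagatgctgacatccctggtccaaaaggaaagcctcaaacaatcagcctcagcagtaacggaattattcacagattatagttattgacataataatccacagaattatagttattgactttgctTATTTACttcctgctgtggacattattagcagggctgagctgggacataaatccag
between genes, nearest start RIMS1, chr6:72318419-72318618: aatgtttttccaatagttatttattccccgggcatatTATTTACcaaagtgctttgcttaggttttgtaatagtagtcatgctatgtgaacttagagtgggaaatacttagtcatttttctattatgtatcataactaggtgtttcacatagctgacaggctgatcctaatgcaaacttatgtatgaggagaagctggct
between genes, nearest start ATAD2B, chr2:23968610-23968809: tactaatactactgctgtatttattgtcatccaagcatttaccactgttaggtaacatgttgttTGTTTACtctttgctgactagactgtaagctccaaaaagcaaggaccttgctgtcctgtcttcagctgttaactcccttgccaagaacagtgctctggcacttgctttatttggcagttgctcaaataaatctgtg
SLC22A23 intron, chr6:3426175-3426374: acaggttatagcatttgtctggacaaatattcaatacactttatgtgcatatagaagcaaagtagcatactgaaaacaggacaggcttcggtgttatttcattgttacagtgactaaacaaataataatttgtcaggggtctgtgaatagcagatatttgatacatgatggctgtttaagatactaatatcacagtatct
SPOPL intron, chr2:139322669-139322868: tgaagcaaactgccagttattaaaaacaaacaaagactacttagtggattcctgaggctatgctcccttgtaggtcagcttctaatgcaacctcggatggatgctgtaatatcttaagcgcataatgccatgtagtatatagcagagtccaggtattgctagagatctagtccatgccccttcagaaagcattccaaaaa
HECW1 intron, chr7:43526469-43526668: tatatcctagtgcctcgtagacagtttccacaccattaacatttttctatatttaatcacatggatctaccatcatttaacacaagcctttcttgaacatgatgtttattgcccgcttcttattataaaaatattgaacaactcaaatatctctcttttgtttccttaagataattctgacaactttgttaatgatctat
RGS3 intron, chr9:116333387-116333586: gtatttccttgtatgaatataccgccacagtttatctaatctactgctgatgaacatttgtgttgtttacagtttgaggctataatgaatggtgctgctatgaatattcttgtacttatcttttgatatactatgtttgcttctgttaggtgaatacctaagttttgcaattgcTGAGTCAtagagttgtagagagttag
between genes, nearest start VPREB1, chr22:22493426-22493625: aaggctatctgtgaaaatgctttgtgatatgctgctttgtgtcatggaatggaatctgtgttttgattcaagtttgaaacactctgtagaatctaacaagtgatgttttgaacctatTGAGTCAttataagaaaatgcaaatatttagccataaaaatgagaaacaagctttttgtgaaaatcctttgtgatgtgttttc
RAPGEF6 intron, chr5:130917468-130917667: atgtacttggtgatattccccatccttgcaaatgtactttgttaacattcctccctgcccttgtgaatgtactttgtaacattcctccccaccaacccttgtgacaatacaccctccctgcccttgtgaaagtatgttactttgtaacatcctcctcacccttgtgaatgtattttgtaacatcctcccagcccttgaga

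The GLB1 window belongs to row chr3:33060611-33061043, in an intron of the gene for the lysosomal enzyme beta-galactosidase. Its TATTTAC was centred 47 bp from the summit, the row lay 3494 bp from the nearest FOXA1 row, and its rank among the 2663 sites was 5, with a −log10 q-value of 41.1 and a fold enrichment of 12.96. It was also the highest-ranked site that a FOXA1dbd row overlapped. The window named by RIMS1, a gene for a presynaptic scaffold protein, is 277734 bp from its start, and that named by ATAD2B, a gene for a bromodomain protein, is 9252 bp from its start. Their cores lay 60 and 33 bp before the summit. The RGS3 window, in a gene for a regulator of G-protein signalling, holds a TGTTTAC in lower case besides its AP-1 core. In all, 35 sites held both kinds of core.

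The common rows were a single set of peak calls. Coordinates, names and all 5 value columns of the 41253 common rows were identical in both variant lists (0 values differed), so the lists do not measure these sites independently. Sharing was rarer outside the rows of the full FOXA1 list. Of the 105591 FOXA1nhaa rows, 39.1% were also FOXA1rraa rows and 41.6% overlapped no FOXA1 row. Among the 61634 FOXA1nhaa rows that overlapped FOXA1, 62.6% were common, compared with 6.06% of the 43957 that did not. These shares follow from the rule and from the full FOXA1 list, and are given as a description. Against the down-sampled list 76.5% of the common rows, not 6.46%, overlapped no FOXA1 row. Seen from the other list, the sites were 28.3% of the 9396 FOXA1rraa rows outside FOXA1, and the remaining 6733 were rows with a prefix of their own, Nonspecific_FOX.

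Peak-name prefixes split the sites unevenly. The prefix FOXA1_3, which 95.1% of FOXA1nhaa rows carry, named 2294 sites (86.1%). The prefix FOXA1_5 covers 3.96% of the list but named 350 sites (13.1%). Of all rows with this prefix 94.7% were common rows, and of those outside FOXA1 81.2% were. FOXA1_4 named 18 sites and FOXA1_6 named 1. What the prefixes stand for is not given in the sources used here.

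Some sites lay very near FOXA1 rows. The 5 nearest sites lay 4, 7, 9, 10 and 20 bp from a FOXA1 row, the first of them in an intron of PHF3, a gene for a plant homeodomain finger protein (chr6:64418695-64418977). Just across the threshold, 5 excluded common rows shared 1, 1, 1, 1 and 2 bp with a FOXA1 row. The 5 nearest sites had −log10 q-values from 3.14 to 9.07, and the 5 rows on the other side had values from 5.36 to 15.2. In all 20 sites lay within 50 bp of a FOXA1 row and 74 within 200 bp, and 420 common rows overlapped FOXA1 by 50 bp or less. The typical site was further away. The median gap was 3814 bp (quartiles 1545 and 8912 bp), 465 sites lay under 1000 bp away and 276 lay more than 20000 bp away. The farthest, chr9:69832293-69832599, was 764364 bp from any FOXA1 row. FOXA1nhaa rows outside FOXA1 that were not common had a median gap of 4384 bp, and the FOXA1rraa rows outside both other lists 4261 bp.

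For comparison, 3 other classes of rows are used throughout. They are the 38590 common rows that overlapped FOXA1, the 41294 FOXA1nhaa rows outside FOXA1 that were absent from the FOXA1rraa list (FOXA1nhaa-only sites), and the 6733 FOXA1rraa rows in neither other list (FOXA1rraa-only sites). A further 23044 FOXA1nhaa rows overlapped FOXA1 but were absent from the FOXA1rraa list, and are given for the forkhead core share only. Values of the first 2 classes and of the 2663 sites stand in the same list. The FOXA1rraa-only values come from another set of calls, so their order against the others shows no change in binding.

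By the medians of the authors' values the 2663 sites lay between their neighbours within the FOXA1nhaa list. Their −log10 q-values ran from 2.02 to 46.4 with a median of 8.63 (quartiles 6.13 and 12.4). The median was 10.2 in the common rows that overlapped FOXA1 and 8.24 in the FOXA1nhaa-only sites. Fold enrichment ran from 2.50 to 16.2 with a median of 5.61, compared with 6.11 and 5.57. Its lower quartile of 4.68 at the sites was below that of both classes (4.95 and 4.78). The 5th percentile of −log10 q at the sites, 4.03, was also below both (4.49 and 4.15). The median width was 333 bp (quartiles 267 and 433 bp), compared with 418 and 315 bp. The sites covered 982 kb in all. The quartile range of the sites overlapped that of both other classes for each quantity, so the classes differ in their middle and are not separate. The 350 sites with prefix FOXA1_5 had a median −log10 q-value of 9.75, and the 2294 with prefix FOXA1_3 one of 8.52. The 18 rows of FOXA1_4 were narrow (median 91.5 bp) with a median −log10 q-value of 3.87.

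**Figure D1:**
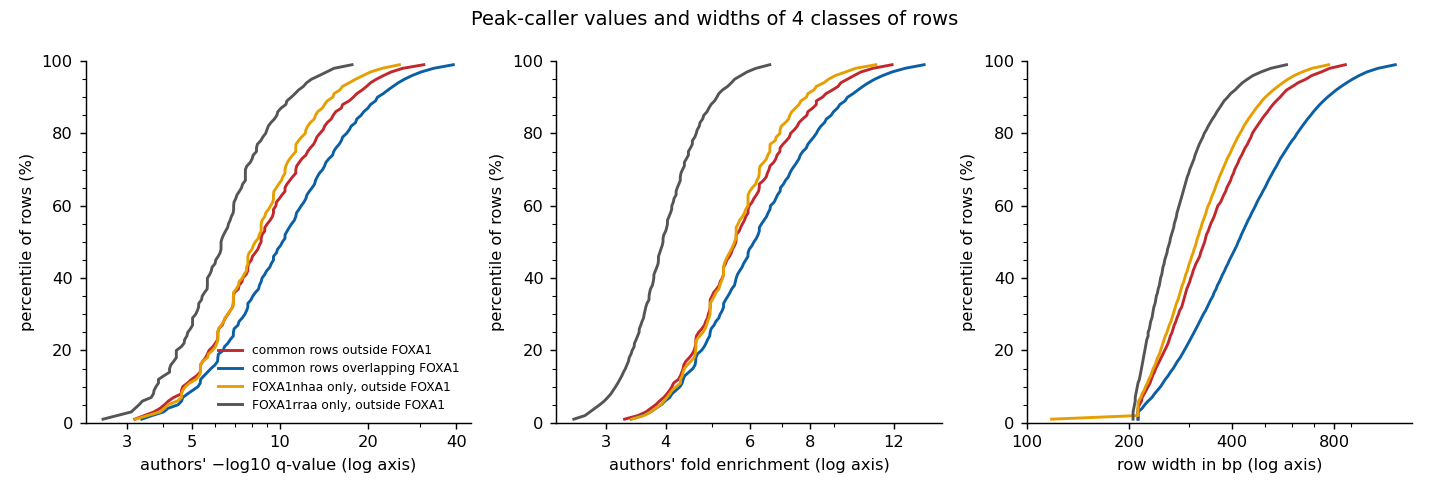
The percentile of rows (vertical axis, %) is drawn against the authors' −log10 q-value, fold enrichment and row width (log axes) for the 2663 common rows outside FOXA1 and 3 other classes, from percentile 1 to 99. The red curve of the 2663 sites runs between that of the common rows overlapping FOXA1 and that of the FOXA1nhaa-only rows in its upper part, with medians of 8.63, 10.2 and 8.24 for −log10 q.

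The forkhead core was found at 534 of the 2663 sites, which is 20.1% (18.6 to 21.6). Over the whole FOXA1nhaa list the share was 13.6%, and over 14292991 windows of 200 bp tiling the genome it was 7.29%. FOXA1nhaa-only sites held it in 10.7% (10.4 to 11.04), which is 9.32 points lower than in the 2663 sites (interval 7.81 to 10.9). The common rows that overlapped FOXA1 held it in 17.5% (17.1 to 17.8), 2.60 points lower (1.07 to 4.21). FOXA1rraa-only sites held it in 26.5% (25.4 to 27.5), a difference of -6.40 points for the 2663 sites (-8.22 to -4.52). The 23044 FOXA1nhaa rows that overlapped FOXA1 but were absent from the FOXA1rraa list held it in 11.56% (11.15 to 11.98). That is 8.49 points lower than in the 2663 sites (6.96 to 10.1). The differences exceed the counting error in each case.

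Both spellings contributed. TGTTTAC was present at 273 sites (10.3%) and TATTTAC at 289 (10.9%), with both at 28. In FOXA1nhaa-only sites the shares were 4.92% and 6.14%, and in common rows overlapping FOXA1 7.92% and 10.46%. A window held 2 or more cores at 52 sites (1.95%), compared with 0.668% of FOXA1nhaa-only sites. Common rows overlapping FOXA1 had 1.82%, and the interval of the difference includes 0 (-0.352 to 0.741). FOXA1rraa-only sites had 3.89%. Within whole rows of any width 29.7% of the sites held a core, 32.7% of the wider common rows overlapping FOXA1 did, and 17.1% of the FOXA1nhaa-only sites did. The related spelling TGTTTGC was present at 8.26% of the sites (7.27 to 9.37), 6.83% of the common rows overlapping FOXA1, 5.36% of FOXA1nhaa-only sites and 3.41% of genome windows. At 73.1% of the sites (71.4 to 74.7) none of the 3 spellings was in the window. That says only that these letters are missing there.

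The bases beside the core were read on the strand of the core. After TGTTTAC or TATTTAC the next base was A in 45.3% of the 581 cores of the sites, T in 35.6%, C in 16.4% and G in 2.75%. FOXA1nhaa-only sites gave 43.8%, 38.4%, 15.6% and 2.14%, so the following base hardly distinguished the classes. The base before the core was A in 29.1% (25.5 to 32.9) of the cores of the sites, in 30.8% (29.5 to 32.1) of those of FOXA1nhaa-only sites, and in 35.7% (34.6 to 36.8) of those of the common rows overlapping FOXA1.

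The letters of the core read in reverse order (CATTTGT and CATTTAT, both strands) keep its base composition and were counted as a reference. They were present at 16.8% (15.4 to 18.3) of the sites, 17.9% of the common rows overlapping FOXA1, 15.3% of FOXA1nhaa-only sites and 12.3% of genome windows. The difference between the sites and FOXA1nhaa-only sites was 1.47 points (0.0506 to 2.97) for the reversed letters, beside 9.32 points for the forkhead core.

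**Figure D2:**
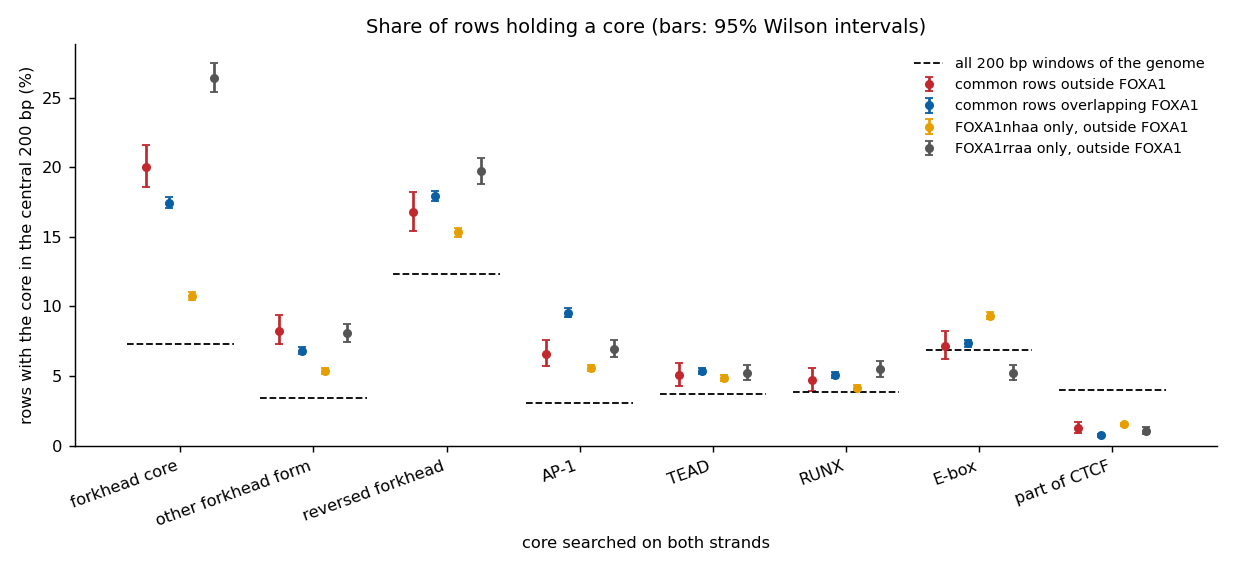
The share of rows holding each core in the central 200 bp (vertical axis, %) is drawn for 4 classes of rows, with 95% Wilson intervals as bars and the share of all genome windows as dashed lines. The forkhead core sets the classes apart most widely, at 20.1% of the 2663 sites (red) against 10.7% of FOXA1nhaa-only rows (yellow) and 26.5% of FOXA1rraa-only rows (grey).

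Cores gathered at the summit. In bins of 50 bp the 2663 sites held 65.3 forkhead cores per 1000 rows in the bin just after the summit and 56.3 in the bin just before it, and between 18.02 and 30.04 in each bin at 250 to 500 bp on either side. In FOXA1nhaa-only sites the same central bins held 30.1 and 28.7, beside 20.4 in the outermost bin on the left. At the sites reversed cores did not reach their highest value at the summit. They had 46.9 and 48.8 per 1000 rows in the central bins, up to 54.1 in bins at 100 to 200 bp and values from 28.2 to 50.7 in the bins at 250 to 500 bp.

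**Figure D3:**
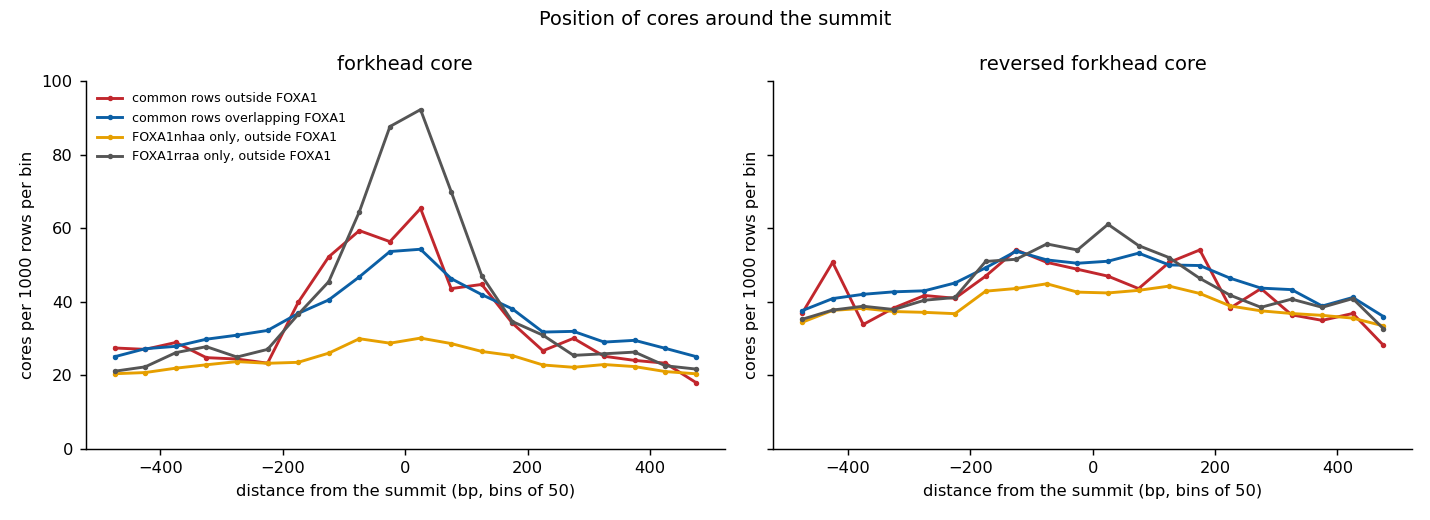
Forkhead cores (left) and reversed cores (right) per 1000 rows in bins of 50 bp (vertical axis) are drawn against the distance from the summit in bp for the 4 classes. In the left panel the 2663 sites (red) rise to 65.3 at the summit, FOXA1nhaa-only rows (yellow) to 30.1 and FOXA1rraa-only rows (grey) to 92.2. In the right panel the reversed cores rise less, to 54.1 for the red line at 100 to 200 bp from the summit and to 61.0 for the grey line at the summit.

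The difference in core share from FOXA1nhaa-only sites was present in each band of base composition that held enough sites to compare. The sites were AT-rich, with a median G+C content of 35% in the central 200 bp (quartiles 32 and 37.5%). The median was 33.5% in the common rows overlapping FOXA1, 36% in FOXA1nhaa-only sites, 34% in FOXA1rraa-only sites and 40% in genome windows. Among windows under 35% G+C, 22.2% of the sites held a forkhead core (20.1 to 24.6), beside 12.9% of FOXA1nhaa-only sites. From 35 to 40% the shares were 18.4% and 10.1%, and from 40 to 45% they were 16.99% and 8.29%. From 45 to 50% only 45 sites remained, and 7 of them held a core.

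The share varied little with distance to FOXA1. Sites under 1000 bp from a FOXA1 row held the core in 22.4% (18.8 to 26.4), sites at 1000 to 5000 bp in 19.2%, at 5000 to 20000 bp in 20.9%, and the 276 farthest in 17.03% (13.1 to 21.9). FOXA1nhaa-only sites stayed between 10.6% and 10.9% in the same bands. Ranking by the authors' −log10 q-value changed it little as well. The lowest-ranked 674 sites held a core in 18.5% (15.8 to 21.7) and the highest-ranked 664 in 22.3% (19.3 to 25.6), whose intervals overlap. The sites of prefix FOXA1_3 held it in 19.1%, beside 10.7% of FOXA1nhaa-only rows with that prefix, and the 350 sites of FOXA1_5 held it in 26.0% (21.7 to 30.8). Within FOXA1_5 the FOXA1nhaa-only rows held it in 21.0% (13.5 to 31.1, 17 of 81 rows) and the common rows overlapping FOXA1 in 25.7% (24.3 to 27.1), so the classes were not separated within this prefix.

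**Figure D4:**
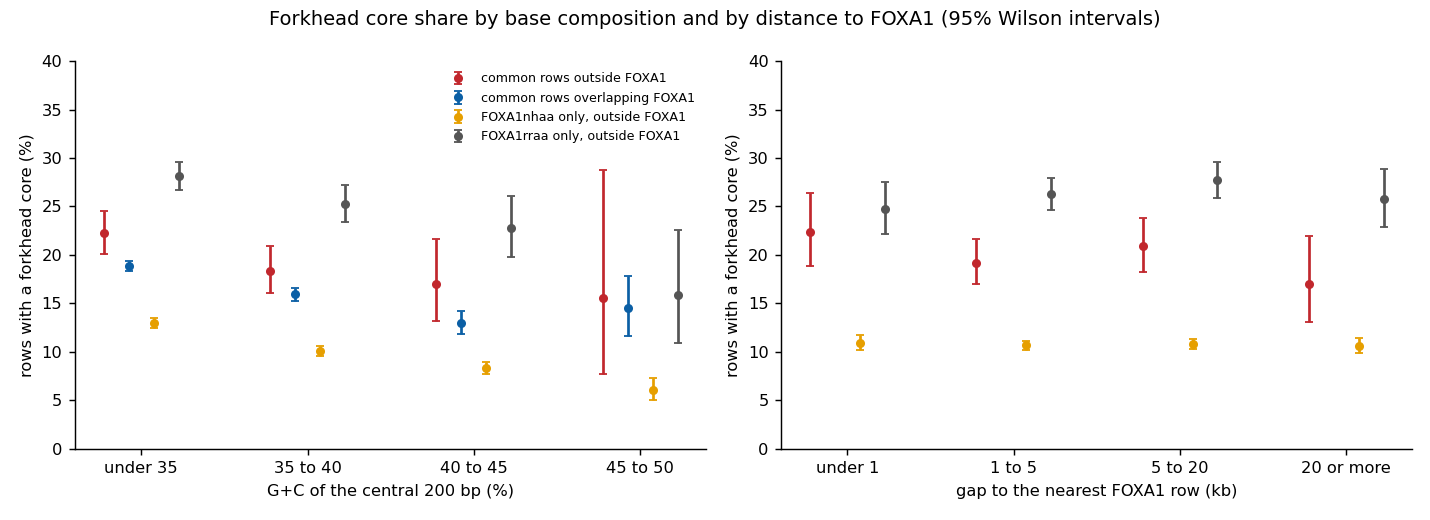
The share of rows with a forkhead core (vertical axis, %) is drawn by G+C content of the window (left) and by distance to the nearest FOXA1 row in kb (right), with 95% Wilson intervals as bars. The 2663 sites (red) lie above the FOXA1nhaa-only rows (yellow) in each band, for example at 22.2% against 12.9% under 35% G+C, and the red interval in the highest G+C band rests on 45 sites.

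Strings of 6 letters were also counted without choosing a core. Of all 2080 strings (each counted with its reverse complement), TGTTTA had the largest difference between the sites and FOXA1nhaa-only sites, at 39.1% and 25.6%. TGTGTA came next (30.3% and 17.1%), followed by TATTTA (40.8% and 27.6%), TATTTG (34.1% and 21.5%) and TTTGTT (44.4% and 32.9%). At the other end, TGCTTC was present at 15.2% of the sites and 21.8% of FOXA1nhaa-only sites, and TGCTGC at 12.6% and 18.6%. Common rows overlapping FOXA1 held TGTTTA in 36.6%, TGTGTA in 28.2%, TATTTA in 42.1%, TATTTG in 32.8% and TTTGTT in 38.5%. They held TGCTTC in 13.9% and TGCTGC in 11.2%. For each string named, the sites were nearer to these common rows than to FOXA1nhaa-only sites. The strings were picked by their difference from FOXA1nhaa-only sites, which favoured this outcome. The rank was taken from these same data, so the rank and this comparison are descriptions.

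Longer repeated strings were rare. The alternating string CACACACACACA was present at 26 sites (0.976%), 0.213% of FOXA1nhaa-only sites and 4.60% of FOXA1rraa-only sites. TAAACAAACCTA, singled out after its values were seen, was present at 15 sites (0.563%), beside 0.179% of common rows overlapping FOXA1 and 0.0581% of FOXA1nhaa-only sites. At 2493 sites (93.6%) the median 20-base piece of the window occurred once in the genome, and such windows are called single-copy here. The share was similar elsewhere, at 94.8% of common rows overlapping FOXA1, 92.9% of FOXA1nhaa-only sites and 91.7% of FOXA1rraa-only sites. Only exact matches were counted, so pieces with near copies could also count as single. A median of 10 or more copies was found at 13 sites. Among the single-copy sites the forkhead core share was 19.98%, beside 10.7% in single-copy FOXA1nhaa-only sites.

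Cores of other factors divided the classes less. AP-1, the dimer of Fos and Jun proteins that marks many fibroblast enhancers, had its core at 176 sites, or 6.61% (5.73 to 7.62). The share was 7.50% over the whole FOXA1nhaa list and 3.05% in genome windows. Common rows overlapping FOXA1 held it in 9.56%, so that the sites differed from them by -2.96 points (-3.89 to -1.91), and FOXA1nhaa-only sites in 5.60%. Among rows that no FOXA1dbd row overlapped, the sites held it in 6.51% (5.63 to 7.52) and the common rows overlapping FOXA1 in 6.67% (6.37 to 6.98). Where a FOXA1dbd row did overlap, 15.6% of 12454 such common rows held it, and 4 of 22 sites. The TEAD core CATTCCA, bound by partners of the Hippo pathway coactivators, was present at 5.07% of the sites, and at 4.84% to 5.34% of the other 3 classes. The RUNX core TGTGGTT was present at 4.69%, and the shares elsewhere were 4.14% to 5.48%. For both cores the intervals of the differences from the sites include 0. The E-box CAGCTG, read by several basic helix-loop-helix proteins, was at 7.17% of the sites and 9.35% of FOXA1nhaa-only sites, a difference of -2.18 points (-3.14 to -1.10). Genome windows held it in 6.87%. Common rows overlapping FOXA1 held it in 7.35%, and the interval of that difference includes 0 (-1.13 to 0.897). FOXA1rraa-only sites held it in 5.21%, 1.96 points below the sites (0.884 to 3.12). The GC box GGGCGG, a promoter element read by SP and KLF proteins, was at 11 sites (0.413%) and at 0.197% to 0.327% of the other 3 classes, beside 2.88% of genome windows.

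Overlap with the other factors was low. FOXA1dbd rows overlapped 22 of the 2663 sites, or 0.826% (0.546 to 1.25), while 14.8% of all FOXA1nhaa rows and 32.3% of the common rows overlapping FOXA1 were overlapped. Only 1095 distinct FOXA1dbd rows of 28831 lay outside FOXA1, so the sites were compared with the other classes outside FOXA1. FOXA1nhaa-only sites gave 0.213% (88 rows), which is 0.613 points below the sites (0.329 to 1.04), and FOXA1rraa-only sites 0.564% (38 rows), whose difference of 0.262 points has an interval that includes 0 (-0.0878 to 0.710). The shared stretch ran from 103 to 411 bp with a median of 241.5 bp. Of the 22 sites 3 held a forkhead core and 4 an AP-1 core.

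The 5 highest-ranked of these were in introns of GLB1, DGKD, ADAM10 and the non-coding CFAP20DC-DT, and between genes, 409607 bp from the start of NYAP2, the nearest protein-coding gene. At GLB1 the FOXA1dbd row was 182 bp wide and lay wholly within the site, with a −log10 q-value of 6.20 in its own list. The site in DGKD, which encodes a diacylglycerol kinase (chr2:234334833-234335627), had a −log10 q-value of 20.4 and shared 411 bp with a FOXA1dbd row of 4.28. The site toward NYAP2 (chr2:226857021-226857565) also had 20.4, and its FOXA1dbd row 10.9. The site in ADAM10, the gene of a membrane-bound protease (chr15:58985979-58986313), had 19.8, and its FOXA1dbd row 3.71. Of these 5 sites only the one in GLB1 had a forkhead core in the window.

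HNF4A, a nuclear receptor of liver and gut that does not belong to the forkhead family, had rows at 49 of the sites, or 1.84% (1.39 to 2.42). The share over the FOXA1nhaa list was 1.91%, and the sites stayed near it. FOXA1nhaa-only sites gave 1.38%, FOXA1rraa-only sites 1.19% and common rows overlapping FOXA1 2.46%. Of the 49 sites 9 were near a transcription start (18.4%, 9.98 to 31.4), compared with 6.24% of the sites that HNF4A did not overlap. The other classes showed the same direction, with 17.4% and 7.24% in FOXA1nhaa-only sites, 13.9% and 9.30% in common rows overlapping FOXA1, and 11.2% and 6.21% in FOXA1rraa-only sites. Rows of both HNF4A and FOXA1dbd overlapped 3 sites. At RAPGEF6, a gene for a Rap guanine nucleotide exchange factor, the site chr5:130917399-130917773 had a −log10 q-value of 28.7 and the HNF4A row 14.97, with 323 bp shared. At C1GALT1, the gene of a glycosyltransferase, the values were 13.2 and 15.1 with 285 bp shared.

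The widest of the sites combined a low fold enrichment with a high −log10 q-value. It measured 1247 bp at chr11:5246094-5247340 and shared 647 bp with the annotated span of HBB, the beta-globin gene, which is normally active in red blood cells. Its −log10 q-value of 32.4 ranked 23 among the 2663 sites, while its fold enrichment of 4.82 ranked 1940. An HNF4A row covered 1094 bp of it, with a fold enrichment of 3.67 and a −log10 q-value of 27.2, and the nearest FOXA1 row was 5415 bp away. It held no forkhead core, and it carried the prefix FOXA1_5.

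Most sites lay in introns and away from starts. Of the site centres 172, or 6.46% (5.59 to 7.46), fell within 1000 bp of a GENCODE transcription start, beside 8.56% of all FOXA1nhaa rows and 7.50% of genome windows. The share was 9.41% in common rows overlapping FOXA1 and 7.38% in FOXA1nhaa-only sites. The difference from the latter has an interval that includes 0 (-1.83 to 0.111). Of the other centres 1694 (63.6%, 61.8 to 65.4) were in introns, 132 (4.96%) in exons and 665 (24.97%, 23.4 to 26.6) between genes. Common rows overlapping FOXA1 were between genes in 18.3%, 6.72 points less (5.07 to 8.44), and FOXA1nhaa-only sites in 27.0%. Genome windows were in introns in 52.3% and between genes in 36.9%. The forkhead core share of the sites was 17.4% near starts, 18.9% in exons, 19.7% in introns and 21.8% between genes.

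**Figure D5:**
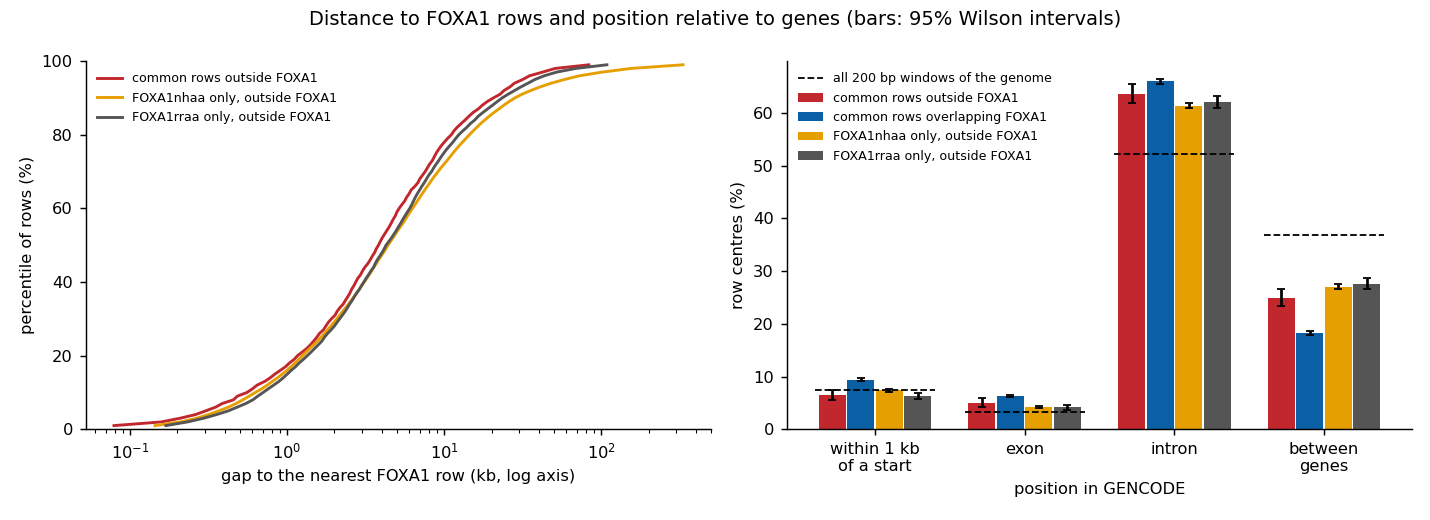
Left, the percentile of rows (vertical axis, %) is drawn against the gap to the nearest FOXA1 row in kb (log axis) for the 3 classes outside FOXA1. Right, bars give the share of row centres (%) near a start, in exons, in introns and between genes for 4 classes with 95% Wilson intervals, and dashed lines give all genome windows. The curves nearly coincide at a few kb, with a median of 3814 bp for the 2663 sites (red), and 63.6% of the red centres were in introns.

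The median distance from a site to the nearest other site was 232590 bp, and 88 sites (3.30%) had another within 5000 bp. No expected spacing was computed, so clustering of the sites was not tested. The median distance from a site to the nearest common row overlapping FOXA1 was 15276 bp, and 605 sites (22.7%) lay within 5000 bp of one. This distance was not measured for the other classes. Chromosome 2 held 280 sites, chromosome 1 held 251 and chromosome 6 held 230. Chromosome 6 carried 8.64% of the sites and between 7.51% and 7.89% of the other classes. The densest 1 Mb held 12 sites, at chr12:59161733-60155005, a stretch with LRIG3, a gene for a leucine-rich repeat membrane protein, and most of SLC16A7, a monocarboxylate transporter gene that held 4 of them. Their −log10 q-values ran from 4.03 to 16.3 with a median of 8.96, and 2 of the 12 held a forkhead core. The same stretch held 127 FOXA1 rows, 35 common rows overlapping FOXA1 and 36 FOXA1nhaa-only sites.

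The 20 highest-ranked sites had −log10 q-values from 33.0 to 46.4, fold enrichments from 10.2 to 16.2 and widths from 380 to 996 bp. The centres of 13 lay in introns, 2 of them within 1000 bp of a start (SPOPL at 811 bp and BLM at 926 bp), and the other 7 were between genes. Their gap to FOXA1 ran from 280 to 17982 bp with a median of 4013 bp, and 3 were under 1000 bp away. A forkhead core lay in the central window of 7 and anywhere in the row of 11. FOXA1_5 named 6 of them and FOXA1_3 the other 14. The highest of all was in SLC22A23, an organic ion transporter family gene (chr6:3426041-3426473), with a −log10 q-value of 46.4, a fold enrichment of 15.6 and the largest gap of the 20, 17982 bp. The next was in SPOPL, a gene for a ubiquitin ligase adaptor (chr2:139322322-139322931), with 45.9 and 16.2 and a gap of only 280 bp, 811 bp from the gene's start.

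Next in rank came sites in HECW1, a ubiquitin ligase gene (chr7:43526354-43527066, −log10 q 43.0), and in BLM, the gene of the Bloom syndrome helicase (chr15:91350888-91351309, 42.1). After GLB1 followed sites in CSMD2 (40.5), in the lysophosphatidic acid receptor gene LPAR3 (39.2) and in TBC1D5 (37.9). Sites named by SYNDIG1L (37.3, at 29456 bp from its start), RIMS1 (36.3) and ATAD2B (36.0) were between genes. Sites in DDAH1, whose product degrades an inhibitor of nitric oxide synthase, and in TMEM117 had values of 35.4 and 35.1. The site in CERKL (35.1) held 1 core. The site in PID1 had 33.9. Others were between genes, 87201 bp from the start of YIPF5 (34.0), 256100 bp from ADGRL3 (33.5), 18374 bp from USP25 (33.2) and 263225 bp from NRIP1, the gene of a nuclear receptor corepressor (33.0). The lowest-ranked site, 6263 bp from the start of the proteasome gene PSMA6 (chr14:35787821-35788213), had a −log10 q-value of 2.02 and a fold enrichment of 2.56.

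Genes that held many sites were long genes. ARID1B, which encodes a subunit of BAF chromatin remodelling complexes, and RAD51B, a homologous recombination gene, held 7 each over 435 and 910 kb. LAMA2 (a laminin chain of basement membranes), MAPK10 (a Jun kinase), PRKD1 (protein kinase D) and STAU2 (a double-stranded RNA binding protein) held 5 each over 327 to 633 kb. Another 12 genes held 4, among them COL24A1, a fibrillar collagen gene, JARID2, a Polycomb cofactor gene, and PRKG1, a cyclic GMP dependent kinase gene. All these genes also held other rows. ARID1B had 68 FOXA1 rows, 24 common rows overlapping FOXA1 and 22 FOXA1nhaa-only sites, and RAD51B had 80, 21 and 32.

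Of 20163 protein-coding genes 1541, or 7.64%, had a site in the body or within 10 kb of it, and 1306 had one in the body. FOXA1nhaa-only sites were at 46.3% of the genes and FOXA1 rows at 67.8%. Counts over gene lists depend on gene length and are given with the median length, beside 27.2 kb for all protein-coding genes. Among 27 fibroblast identity and matrix genes (median 38.4 kb) 3 had a site. FBN1, the gene of the microfibril protein fibrillin, had 2, its relative FBN2 had 1, and COL1A2, a chain of type I collagen, had 1. Of 15 TGF-beta pathway genes (median 82.8 kb) 2 had a site, and both encode inhibitory SMAD proteins. SMAD7 held 1 in its body and SMAD6 had 1 within 10 kb. SMAD7 had no common row inside FOXA1 and no FOXA1nhaa-only site, and 3 FOXA1 rows.

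None of the 10 AP-1 subunit genes (median 7.86 kb) and none of the 22 liver genes (median 24.2 kb) had a site, while 7 and 13 of them had a FOXA1 row. Of 20 forkhead genes (median 13.3 kb) 4 had one. FOXP1 held 3 sites over 629 kb and FOXP2, its relative, 2 over 607 kb. FOXN3 held 2 over 494 kb and FOXO1, an insulin-responsive factor, held 1 over 111 kb. Of 20 long neuronal adhesion and synapse genes (median 1485 kb) 6 had a site, with 3 each in CTNNA2 and MAGI2, 2 in MACROD2 and 1 each in LSAMP, OPCML and NRXN3. Per Mb of genes with their 10 kb flanks that is 0.334 sites in the neuronal list. The forkhead list had 2.89 per Mb (8 sites), the matrix list 1.61 (4 sites), the TGF-beta list 1.03 (2 sites) and all protein-coding genes 1.08. These list rates rest on few sites, have no interval, and their difference from all genes was not tested. With its flanks FOXP1 also had 68 FOXA1 rows, 19 common rows overlapping FOXA1 and 21 FOXA1nhaa-only sites. Of 20 actin and adhesion genes (median 58.1 kb) only CDH2, which encodes N-cadherin, had sites, 2 in its body.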

How the data were processed

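Peak lists from ChIP-seq with an anti-HALO antibody in BJ fibroblasts were analysed. Per the submitters' processing notes, Bowtie2 2.3.4.1, Picard, GATK 4.2.6.0, bedtools 2.27.1, MACS2 2.2.7.1 and deepTools 3.5.0 were used, with hg19. The roles of these tools, the use of inputs and any pooling of replicates are not given in the sources used here. The deposited lists hold, for each row, a score, a fold enrichment (a ratio to background), its −log10 of the p-value and of the q-value, and the summit offset. These are the authors' values, used here for description and ranking. The FOXA1 lists give a score only.

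Rows common to both variant lists matched in chromosome, start, end and name, and overlap meant 1 bp or more. Sequence was read from GRCh37 in the 200 bp around the summit, and genes from GENCODE 44 lifted to GRCh37. A centre within 1000 bp of a transcription start counted as near a start, then as exon, intron or between genes. Named sites were the 20 highest by −log10 q-value, the lowest, the widest, the nearest to and farthest from FOXA1 and the 5 highest overlapped by FOXA1dbd or HNF4A, and 1 of the highest is not reported here. Named genes were those with most sites and all members of the fixed gene lists with a site. The sites, the gene lists, the cores and the alternatives were chosen with earlier results of these data known. Strings of 6 and 12 letters, bases beside the core and genome copies were added after the data were seen. The code (Python 3.11.15, numpy 2.4.6, pandas 2.3.3, scipy 1.17.1) was tested on simulated data. The H2B samples and the input libraries were not analysed here.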

Additional observations from a re-analysis of the deposited data

How the results depend on the processing

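No paired analysis was possible because the replicates have no lists of their own. Under other settings 7 values were recomputed, giving 47 pairs of value and setting. The values were the number of sites, shares with a forkhead or AP-1 core, G+C content, share near a start, and overlap with FOXA1dbd and HNF4A. Of the pairs 41 stayed within 1.5 times the count or within the 95% interval of the main value. Several settings kept all or most of the same sites (2663, 2638, 2294 and 2198), so staying within these bounds was largely fixed in advance. With the down-sampled FOXA1 list in place of the full one the rule gave 31544 sites, since fewer FOXA1 rows remove fewer common rows, and the upper 50% by −log10 q-value holds 1331 by construction. A window of 100 bp lowered the forkhead core share to 10.7% and the AP-1 share to 2.78%, as a shorter window holds fewer letters. In that window FOXA1nhaa-only sites held a forkhead core in 5.36%, common rows overlapping FOXA1 in 9.59% and FOXA1rraa-only sites in 15.5%, so the order of the classes was kept. A distance of 2500 bp raised the share near a start to 14.9%. An overlap of 50% of the shorter row lowered the HNF4A share to 1.20%. Sites at least 1000 bp from FOXA1 numbered 2198 and held a forkhead core in 19.6%. Matching rows by overlap in place of name gave the same 2663. Copy number was examined after seeing the data, and 19.98% of single-copy sites held a forkhead core. A missing FOXA1 row says only that none was called there, at a depth that is unknown.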
